A study of Homo sapiens with 2 samples.

Results

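The enzymes and carriers examined here take up glucose, split it in glycolysis, release lactate, bring galactose into the same route and run the pentose phosphate pathway. They were chosen by symbol from a list of 38 names, of which 37 were found with 1 row each in the gene tables of both samples, among 25277 rows. PKM2 was not found as a row of its own, and the gene was listed as PKM. HEK293 cells, a line derived from human embryonic kidney, were either wild-type (WT) or PERK-KO, and 1 sample of each genotype was sequenced. PERK is the product of EIF2AK3, an endoplasmic reticulum kinase of the unfolded protein response, and the KO cells came from CRISPR/Cas9 editing and seeding of single cells. A difference made by the edit and a difference between a clone and its parental line therefore cannot be told apart. The cells, both at passage 15-20, were kept for 12 h in OXPHOS medium, which holds galactose and pyruvate in place of glucose. The measure is FPKM, the number of fragments scaled by transcript length and by sequencing depth, with the confidence limits that Cufflinks gives. These limits cover error within 1 library, called counting error here, although some are wider than fragment counts alone would give. There is therefore no replicate error, and no difference between the genotypes could be tested.

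Glycolysis converts glucose to pyruvate in a chain of cytosolic steps, and lactate dehydrogenase and the monocarboxylate transporters remove pyruvate as lactate. Galactose enters by the Leloir pathway, in which galactokinase phosphorylates it and the product is exchanged with UDP-glucose to give glucose 1-phosphate, and phosphoglucomutase passes this on to glycolysis. Cells in galactose gain little ATP from glycolysis and rely on oxidative phosphorylation. The pentose phosphate pathway branches off at glucose 6-phosphate to make NADPH and ribose 5-phosphate.

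Among the sugar genes, the glucose transporter SLC2A1 and the hexokinase HK2 were higher in the PERK-KO sample, by 1.78-fold and 1.97-fold, and the galactokinase GALK1 was 1.64-fold lower. These were the members past 1.5-fold, as 1 of 37 was lower and 2 were higher, while 7.54% of the 14594 genes that reached 1 FPKM in either sample were lower and 10.1% were higher by that rule. All 37 members passed this filter. The confidence limits of the samples lay apart with the PERK-KO value lower in 10 members (27.0%) and higher in 9 (24.3%), beside 18.7% and 26.1% of all genes tested. In the other 18 members the limits overlapped. The median log2 ratio of PERK-KO over WT was 0.048 over the members and 0.039 over all genes tested, and the median size of the log2 ratio, without its sign, was 0.24 and 0.27. Summed over the members, FPKM was 9326 in the WT sample and 8776 in the PERK-KO sample, which was 1.04% and 1.13% of all FPKM. In bulk RNA, fewer cells with a transcript and less of it per cell cannot be told apart.

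**Figure D1:**
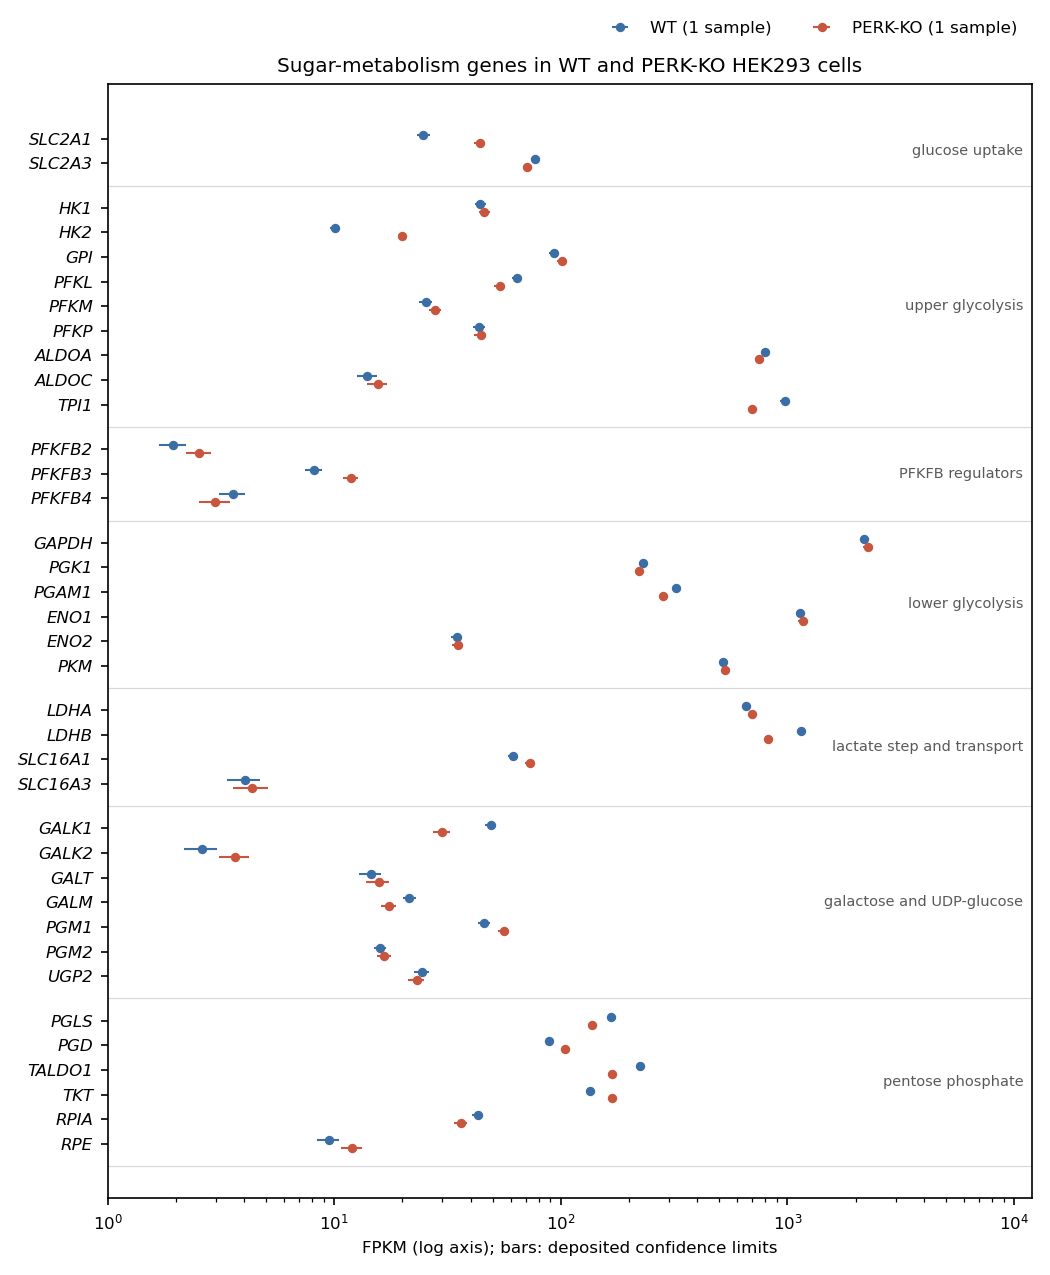
FPKM (log axis) of the 37 members in the WT sample (blue) and the PERK-KO sample (red), grouped by role, with bars for the deposited confidence limits and 1 sample per genotype. Levels run from 1.95 for PFKFB2 to 2185 for GAPDH in the WT sample, and SLC2A1, HK2 and GALK1 are the members more than 1.5-fold apart.

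Facts of the libraries bear on every ratio given here. From the width of the limits of 18 members with a single transcription start, the FPKM that a fragment stood for was a median of 1.14 times as large in the PERK-KO library (range 1.13 to 1.56), and by that median its depth was 87.6% of that of the WT library. Read as counting error alone, the limits of the members corresponded to 138 to 9970 fragments in the WT sample. In the PERK-KO sample they corresponded to 127 to 8349. Their half-width had a median of 5.32% and 5.62% of the value. In the WT sample such a fragment stood for 0.960 FPKM for GAPDH (1285 bases) and 0.034 for PGAM1 (1802 bases). The fragment numbers are therefore not counts for every member. FPKM summed over all rows to 896741 in the WT sample and 779062 in the PERK-KO sample. Scaling both samples to the same sum, as TPM does, therefore adds 0.20 to each log2 ratio and moves the median of all genes to 0.24. EIF2AK3 itself had an FPKM of 5.61 in the WT sample and 3.89 in the PERK-KO sample, which does not check the label because an edited gene can still be transcribed. HSPA5, a chaperone of the endoplasmic reticulum, was 161 and 679. Of 6 genes listed for the embryonic kidney and neuronal traits of HEK293 cells, 3 reached an FPKM of 1 in the WT sample and 5 in the PERK-KO sample, with sums of 63.8 and 61.0. Among these, NEFM and INA were higher in the PERK-KO sample, with NEFM at 0.662 and 5.21, and NEFL, LHX1 and PAX2 were lower, with NEFL at 44.9 and 33.4. Of 10 markers of blood, fibroblast, endothelial, liver and fat cells, 4 reached 1 in each sample, with sums of 13.2 and 9.68 over the 10. The fibroblast markers COL1A1 and COL3A1 had 4.97 and 5.13 in the WT sample and 4.62 and 1.77 in the PERK-KO sample. PECAM1 (endothelium) had 1.35 and 1.36, and ADIPOQ (fat) had 1.68 and 1.42. PTPRC and APOA1 were below 1, and ALB, UCP1, CD3E and CDH5 were at 0 in both. The part of these facts in the results was not tested.

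Glucose uptake was represented by SLC2A1 (GLUT1) and SLC2A3 (GLUT3), which carry glucose across the plasma membrane. SLC2A1, on chromosome 1 from 43391046 to 43424847 (hg19, minus strand), had an FPKM of 24.8 (limits 23.2 to 26.4) in the WT sample and 44.02 (41.5 to 46.5) in the PERK-KO sample. The limits were far apart, and the log2 ratio was 0.83 with a counting interval of 0.71 to 0.95. SLC2A3, on chromosome 12, had 77.3 (75.2 to 79.3) in the WT sample and 70.9 (68.8 to 73.0) in the PERK-KO sample, a log2 ratio of -0.12 that became 0.079 under TPM scaling. SLC2A3 was thus the more abundant of the pair in both samples, and the share of SLC2A1 in their sum was 24.3% in the WT sample and 38.3% in the PERK-KO sample. SLC2A3 shares nearly identical sequence with SLC2A14, whose FPKM was 15.2 and 18.8, so reads could be split between them. The sum of both was 92.4 and 89.7. An antisense row, SLC2A1-AS1, overlaps SLC2A1 by 128 bases and had an FPKM of 0.449 and 0.986, and the library kit does not mark strand.

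Of the 37 members, SLC2A1, HK2 and GALK1 differed most between the samples, and the bases before their start sites are shown for that reason, from the RefSeq promoter table (GRCh38.p14), 5′ to 3′ on the strand of the gene. The window is the 250 bases before the RefSeq start, less any bases that an exon of the gene covers in GENCODE 44 on GRCh37. Capitals mark the motifs searched on both strands. The hypoxia response element was searched by its cores ACGTG or else GCGTG, and the E-box by CACGTG, which contains the first of these cores. An ETS core was searched as CCGGAAG, the ATF4 core as TGATGNAA, and a part of the ER stress element as CCACG. The windows are chr1:42958894-42959118 on the minus strand for SLC2A1, chr2:74833877-74834126 on the plus strand for HK2 and chr17:75765237-75765442 on the minus strand for GALK1.
SLC2A1: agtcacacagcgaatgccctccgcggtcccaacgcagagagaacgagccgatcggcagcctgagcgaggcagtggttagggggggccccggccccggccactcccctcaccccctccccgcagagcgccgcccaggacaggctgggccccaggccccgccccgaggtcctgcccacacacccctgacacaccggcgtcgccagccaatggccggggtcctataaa
HK2: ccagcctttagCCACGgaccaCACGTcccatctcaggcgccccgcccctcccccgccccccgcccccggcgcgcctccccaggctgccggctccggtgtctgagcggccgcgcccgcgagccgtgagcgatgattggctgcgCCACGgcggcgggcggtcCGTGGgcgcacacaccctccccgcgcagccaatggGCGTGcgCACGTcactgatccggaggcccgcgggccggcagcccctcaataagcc
GALK1: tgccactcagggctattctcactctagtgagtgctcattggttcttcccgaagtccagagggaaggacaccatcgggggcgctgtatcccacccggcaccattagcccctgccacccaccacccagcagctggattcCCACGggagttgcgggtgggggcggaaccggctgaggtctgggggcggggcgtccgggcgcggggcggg
The HK2 window held ACGTG at -229 and -48, GCGTG at -55 and CCACG at -239, -108 and -90, counted from the start to the first base of each match on the gene's strand. GALK1 held CCACG at -113, and the SLC2A1 bases shown held none of the 6 motifs. The full SLC2A1 window, to 50 bases after the start, held 1 GCGTG outside the bases shown. The RefSeq start lies 308 bases downstream of the start of the deposited SLC2A1 row, 1472 bases downstream for HK2 and 7 bases for GALK1, so the bases shown for SLC2A1 and HK2 lie within the bounds of their deposited rows and those for GALK1 lie outside. The GC content of the bases shown was 72.0% for SLC2A1, 76.8% for HK2 and 67.5% for GALK1.

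Across the members, 34 had a promoter in that table, with windows from 250 bases before to 50 after the start, and SLC16A1, PFKFB2 and SLC2A3 are named only. ACGTG was present in 19 of the 34 genes (55.9%) and in 32.0% of 9969 tested genes with a promoter in the table. CACGTG was present in 9 (26.5% and 12.5%), namely ALDOA, ALDOC, GALK2, GALT, GAPDH, HK2, LDHA, PFKFB3 and PGM2. For HK2 it lies in another window, at a start further downstream, and not in the bases shown above. For the other motifs, GCGTG was present in 21 genes (61.8% and 58.7%), CCACG in 21 (61.8% and 57.2%), CCGGAAG in 6 (17.6% and 21.7%) and TGATGNAA in HK1 (2.94% and 2.67%). A match is a run of letters and not a known binding site. Genes with several start sites count once for any of them. The 34 member genes had 63 windows, and all 27305 genes with a promoter had 35116, so members had more windows per gene. By window, ACGTG was present in 23 of 63 for the members and in 21.4% of all. CACGTG was present in 9 of 63 and in 7.26%. These window shares cover all genes with a promoter and not only tested genes, for which no share by window was taken. By gene, ACGTG was present in 24.9% and CACGTG in 8.77% of all 27305, below the shares of tested genes given above.

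The first steps of glycolysis, from hexokinase to triose-phosphate isomerase, held 9 members, of which 2 (22.2%) were lower and 1 (11.1%) higher with limits apart, beside 18.7% and 26.1% of all genes. HK2, an inducible hexokinase that traps glucose as glucose 6-phosphate, lies on chromosome 2 from 75059782 to 75120481. Its FPKM was 10.1 (9.57 to 10.6) in the WT sample and 19.9 (19.1 to 20.7) in the PERK-KO sample, a log2 ratio of 0.98 with a counting interval of 0.88 to 1.07. HK1, the widely expressed hexokinase on chromosome 10, had 44.2 (41.8 to 46.6) and 46.0 (43.4 to 48.5), and the limits overlapped. HK2 thus made up 18.6% of the hexokinase FPKM in the WT sample and 30.2% in the PERK-KO sample, and HK1 remained the more abundant in both. The log2 ratio of HK1 minus that of HK2 was -0.92 (counting interval -1.07 to -0.77).

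Triose-phosphate isomerase, TPI1, interconverts the triose phosphates that aldolase releases. TPI1, on chromosome 12 from 6976584 to 6980110, had an FPKM of 971 (930 to 1013) in the WT sample and 699 (668 to 730) in the PERK-KO sample, and its log2 ratio of -0.47 (counting interval -0.56 to -0.39) was the lowest in upper glycolysis. The liver-type phosphofructokinase PFKL, one of the isozymes of the committed step, had 64.0 (60.6 to 67.4) and 53.9 (50.8 to 56.9), also with limits apart. PFKM, the muscle type, had 25.3 and 27.8, and PFKP, the platelet type, had 43.5 and 44.2. Their limits overlapped, and the share of PFKL in the sum of the isozymes was 48.2% in the WT sample and 42.8% in the PERK-KO sample. GPI, which converts glucose 6-phosphate to fructose 6-phosphate, had 93.3 and 101. The aldolases, which split fructose 1,6-bisphosphate, had 795 and 751 for ALDOA and 14.01 and 15.5 for ALDOC, with overlapping limits.

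The PFKFB genes encode the bifunctional enzymes that make and remove fructose 2,6-bisphosphate, an activator of phosphofructokinase. PFKFB3, which mainly makes it, had an FPKM of 8.11 (7.42 to 8.80) in the WT sample and 11.8 (10.9 to 12.7) in the PERK-KO sample, a ratio of 1.46. This was just short of 1.5-fold, with limits apart. PFKFB2 had 1.95 (1.69 to 2.22) and 2.53 (2.21 to 2.86), with limits that overlapped slightly. PFKFB4 had 3.57 (3.10 to 4.04) and 2.99 (2.53 to 3.45). The limits of PFKFB4 overlapped too, and PFKFB3 was the most abundant of the 3 in both samples, with 59.5% of their sum in the WT sample and 68.1% in the PERK-KO sample.

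The 6 genes of lower glycolysis had log2 ratios between -0.19 and 0.048 with a median of 0.022, and between -0.25 and 0.28 after the running median over length was subtracted. They run from glyceraldehyde-3-phosphate dehydrogenase to pyruvate kinase. GAPDH, often used as a reference gene, had an FPKM of 2185 (2094 to 2277) in the WT sample and 2259 (2164 to 2354) in the PERK-KO sample, the highest level of any member in both. Its log2 ratio was 0.048 and became 0.25 under TPM scaling. PGK1, which makes the first ATP of the pathway, had 229.8 (225 to 234) and 221 (216 to 226), with overlapping limits and a log2 ratio of -0.058 that became 0.15 under TPM scaling. ENO1, the main enolase, had 1141 and 1166, ENO2, the neuronal form, had 34.7 and 35.0, and PKM, pyruvate kinase, had 521 and 532. None of these 3 had limits apart. PGAM1, the phosphoglycerate mutase on chromosome 10, had 323 (316 to 329) and 282 (276 to 289), the 1 gene of the stage with limits apart, and its log2 ratio of -0.19 became 0.0082 under TPM scaling. Its near-identical copy PGAM4, on the X chromosome, had 89.5 and 78.8, so these values are uncertain as a split between the copies. Together the pair had a log2 ratio of -0.19. GENCODE lists 65 pseudogenes named after GAPDH, 13 after PGAM1, 6 each after LDHA and RPE, 5 after PKM and 4 each after TPI1 and ENO1, which can share reads with these genes.

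Pyruvate and lactate are interconverted by lactate dehydrogenase, a tetramer of LDHA and LDHB subunits. LDHB, on chromosome 12 from 21788275 to 21810789, had an FPKM of 1154 (1104 to 1203) in the WT sample and 824 (788 to 861) in the PERK-KO sample. LDHA, on chromosome 11 from 18415936 to 18429765, stood at 655 (630 to 680) and 699 (672 to 727). The limits of LDHB lay apart, those of LDHA overlapped, and LDHB was the more abundant in both samples. LDHA made up 36.2% (34.9 to 37.6) of their sum in the WT sample and 45.9% (44.4 to 47.4) in the PERK-KO sample. The log2 ratio of LDHA minus that of LDHB was 0.58 (counting interval 0.46 to 0.70). SLC16A1 (MCT1), which moves lactate and pyruvate across the plasma membrane, had 61.6 (58.5 to 64.7) and 73.3 (69.6 to 77.0). It was higher with limits apart, while SLC16A3 (MCT4), the exporter of highly glycolytic cells, was low in both, at 4.04 (3.35 to 4.73) and 4.33 (3.56 to 5.10).

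In the galactose route, galactokinase had the lowest log2 ratio of all members. GALK1, galactokinase, lies on chromosome 17 from 73754018 to 73761280 on the minus strand. Its FPKM was 49.0 (46.1 to 51.9) in the WT sample and 29.9 (27.4 to 32.3) in the PERK-KO sample, a log2 ratio of -0.72 with a counting interval of -0.86 to -0.57. It stayed lower with limits apart but was no longer past 1.5-fold under TPM scaling (-0.51) or with the running median over length subtracted (-0.52). GALK2, on chromosome 15, encodes a kinase that acts mainly on N-acetylgalactosamine, and had 2.61 (2.18 to 3.05) and 3.66 (3.10 to 4.21). GALK1 was thus lower and GALK2 higher with limits apart, though those of GALK2 overlapped once the running median over length was subtracted. The share of GALK2 in the sum of GALK1 and GALK2 was 5.06% in the WT sample and 10.9% in the PERK-KO sample. The log2 ratio of GALK1 minus that of GALK2, -1.20 (counting interval -1.56 to -0.84), was the widest gap between isozymes in the 10 groups, though with the running median over length subtracted it was -0.82 and that of SLC2A1 against SLC2A3 was wider, at 0.99. GALK2 is overlapped by FAM227B, at an FPKM of 0.636 and 0.947, and NDUFAF4P1, at 0.408 and 0.465.

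The other genes of the galactose route had ratios nearer to 0 than GALK1. GALM, the mutarotase that prepares galactose for the kinase, had 21.5 (20.1 to 22.9) in the WT sample and 17.4 (16.1 to 18.7) in the PERK-KO sample, with limits apart. GALT, the uridylyltransferase whose loss causes classic galactosaemia, had 14.5 (12.8 to 16.2) and 15.7 (13.8 to 17.5). Its limits overlapped, as did those of PGM2, a phosphopentomutase, at 15.95 and 16.6, and UGP2, which makes UDP-glucose, at 24.4 and 23.1. PGM1, the main phosphoglucomutase, had 46.0 (43.3 to 48.7) and 56.1 (52.8 to 59.3) and was higher with limits apart.

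All 6 pentose phosphate members had limits apart, 3 of them lower and 3 higher in the PERK-KO sample, beside 18.7% and 26.1% of all genes. Under TPM scaling the limits of PGLS and RPIA overlapped, and after subtracting the running median over length those of PGLS, RPIA and RPE did. In the oxidative branch, PGLS, the lactonase, had an FPKM of 167 (161 to 174) in the WT sample and 137 (131 to 144) in the PERK-KO sample. PGD, which releases carbon dioxide and NADPH, had 88.7 (85.5 to 91.8) and 105 (101 to 109). The lactonase was thus lower and the next enzyme higher. In the non-oxidative branch, TALDO1, transaldolase, had 224 (217 to 230) and 168 (162 to 174), a log2 ratio of -0.41. TKT, transketolase, which shares its substrates, had 134 (129 to 139) and 168 (161 to 176), a log2 ratio of 0.33. The half-width of the TKT limits was 4.09% of the value in the WT sample and 4.55% in the PERK-KO sample. Read as counting error alone, this corresponded to 2396 and 1934 fragments, which cannot be taken as counts. TALDO1 was thus above TKT in the WT sample, and in the PERK-KO sample their FPKM did not differ beyond the limits. RPIA, which makes ribose 5-phosphate, had 43.0 (40.7 to 45.3) and 36.2 (34.0 to 38.5), and RPE, the epimerase of the same branch, had 9.45 (8.44 to 10.5) and 11.97 (10.7 to 13.2). Over the 6 genes the median log2 ratio was -0.0037.

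**Figure D2:**
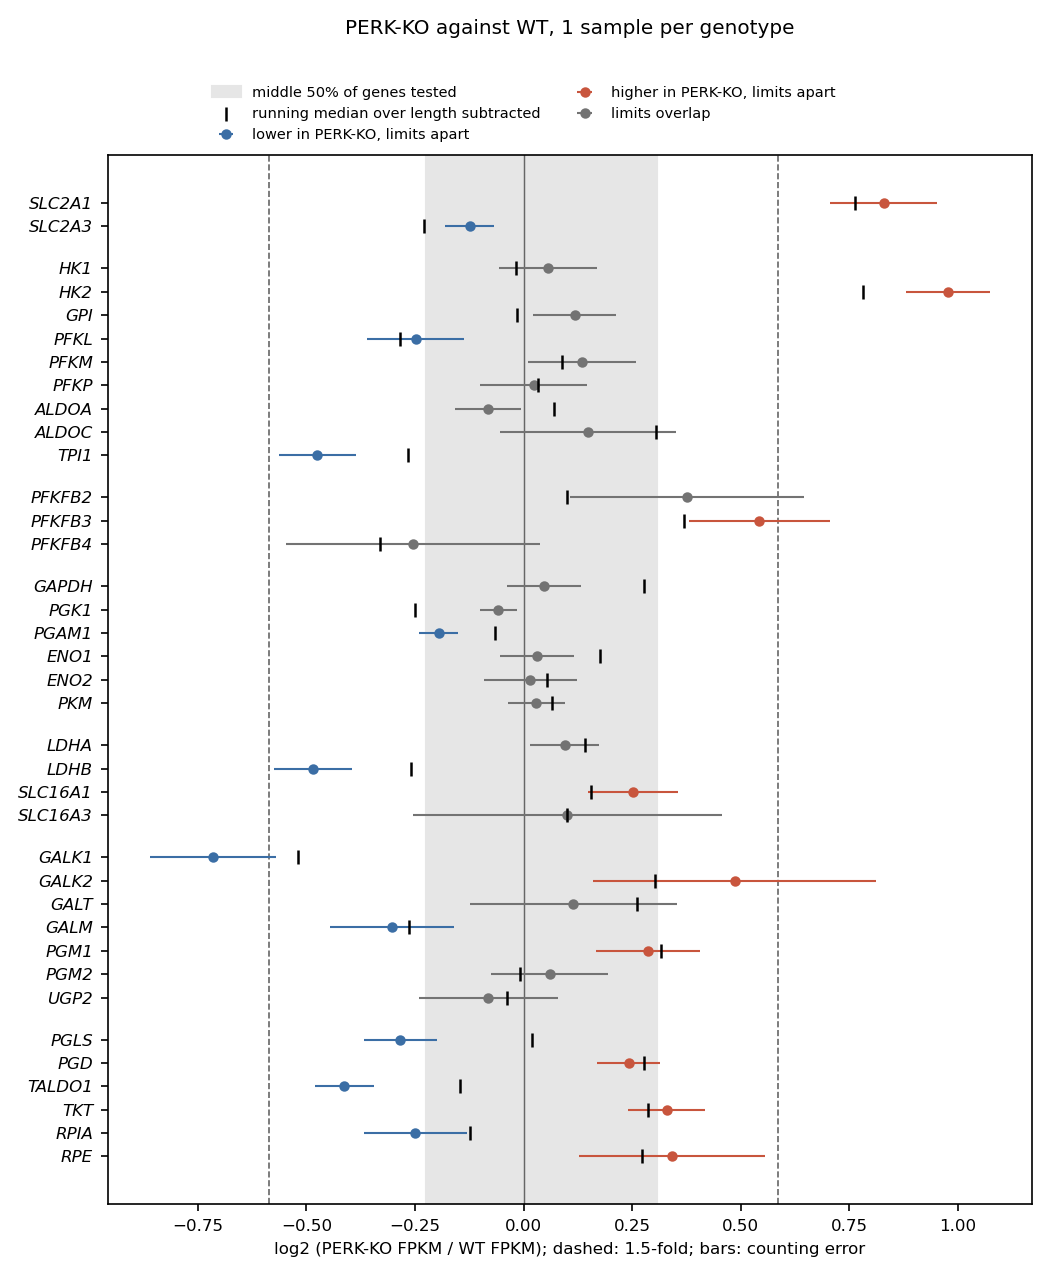
Log2 ratio of PERK-KO over WT FPKM for the 37 members (points) with counting intervals (bars), in the order of the roles, where blue and red mark members lower and higher with limits apart and black ticks mark the ratio less the running median over transcript length. Dashed lines mark 1.5-fold, the grey band holds the middle 50% of all genes tested (-0.23 to 0.31) and 21 members lie within it, and under TPM scaling all points shift by 0.20 to the right, so that SLC2A3, ALDOA, PGK1, PGAM1 and UGP2 move above 0.

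The members' ratios moved with transcript length, as did those of all genes. Among the 12 members with a canonical transcript under 2000 bases, 7 were lower with limits apart and 0 were higher, and the median log2 ratio was -0.22. Of all 3596 tested genes of such length, 38.3% were lower and 6.70% were higher with limits apart, with a median of -0.21. Among the 25 longer members, 3 were lower and 9 were higher, with a median of 0.10. Of the 9917 longer genes, 12.4% were lower and 35.0% were higher, with a median of 0.12. Over all rows with a transcript under 2000 bases, FPKM summed to 431659 in the WT sample and 338491 in the PERK-KO sample. Over rows with longer transcripts it summed to 234369 and 233515. TPM scaling and the length step are therefore not independent alternatives. Over the 37 members, Pearson's r between the log2 ratio and log10 length was 0.65 and Spearman's rho was 0.60, and over 13500 genes r was 0.12 and rho 0.45, where r is sensitive to genes estimated near 0 in 1 sample. Without SLC2A1, HK2 and GALK1 the members' r was 0.61 and rho 0.54. These are correlations across genes of the same 2 libraries, which are not independent replicates. GALK1 (1397 bases), TPI1 (1351), LDHB (1303), TALDO1 (1199) and PGLS (1008) are among the short members, and HK2 (5626), GALK2 (5176) and PFKFB3 (4482) among the long ones. The part of length in the single ratios was not tested.

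**Figure D3:**
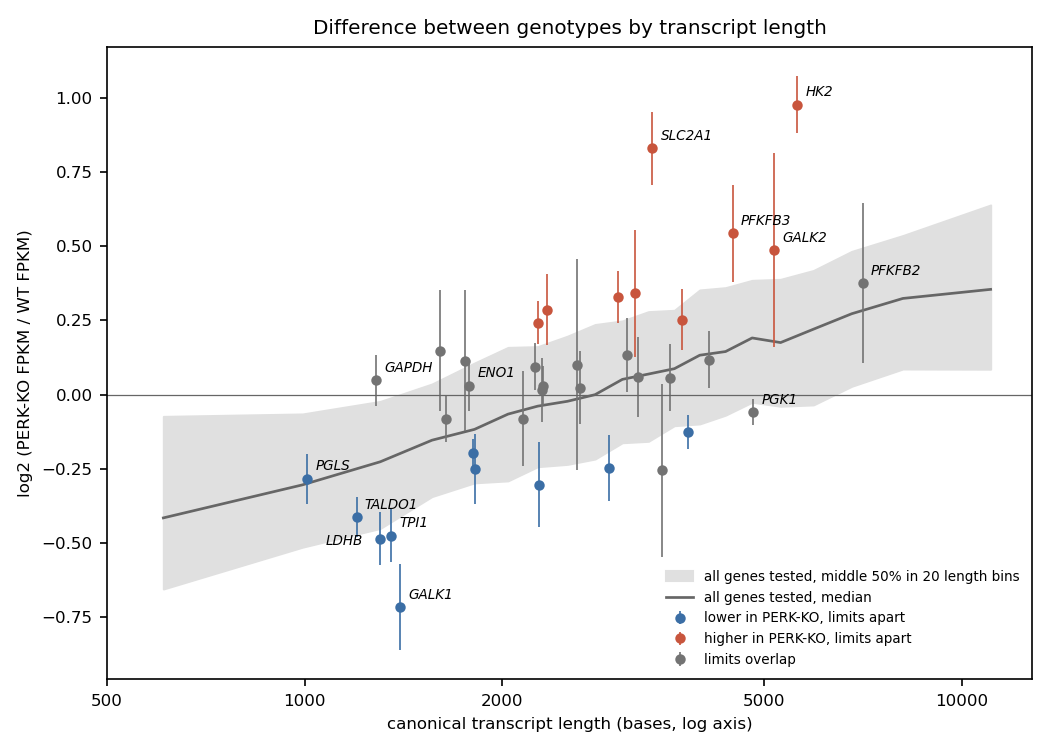
Log2 ratio of PERK-KO over WT FPKM against canonical transcript length (bases, log axis) for the 37 members (points with counting intervals), with the median and middle 50% of all genes tested in 20 length bins (line and band). The median of all genes runs from -0.41 in the bin of the shortest transcripts to 0.35 in that of the longest, and SLC2A1, HK2, PFKFB3, GAPDH, LDHB and GALK1 are among the members outside the band at their length.

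When the running median of genes of like length was subtracted, SLC2A1 stood at 0.76, HK2 at 0.78 and PFKFB3 at 0.37 on the log2 scale, and GALK1 at -0.52. TPI1 stood at -0.27, LDHB at -0.26 and TALDO1 at -0.15. PGLS, a short transcript, stood at 0.019, and its limits then overlapped. GAPDH and ENO1, short transcripts with ratios near 0, came to 0.28 and 0.17, while PGK1, with a long transcript, came to -0.25. After this step 9 members were lower with limits apart, 8 of them among the 10 named above, and 11 were higher, 7 of them among the 9, beside 19.9% and 20.3% of all genes. TPI1, GALK1, LDHB and TALDO1 stayed lower with limits apart under both TPM scaling and the length step. So did SLC2A1, HK2, PFKFB3, SLC16A1, PGM1, PGD and TKT on the higher side. Read as counting error alone, the limits of TPI1 corresponded to 2168 fragments in the WT sample and 2058 in the PERK-KO sample. Those of LDHB corresponded to 2167 and 2059, and those of TKT to 2396 and 1934. A fragment so read stood for 0.448 FPKM for TPI1 (1351 bases) in the WT sample and 0.048 for TALDO1 (1199 bases). For TKT it stood for 0.056 FPKM in the WT sample and 0.087 in the PERK-KO sample. The numbers are thus not counts, and cannot show whether the reads of TPI1, LDHB and TKT moved with the FPKM. For the other members that stayed lower or higher, such numbers went the way of the FPKM, beside the PERK-KO depth of 87.6%. The cause of the wide limits was not tested.

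The most abundant sugar enzymes can be set beside the other abundant genes. Of 1211 genes that reached 100 FPKM in either sample, 60.9% were lower and 13.7% were higher with limits apart, with a median log2 ratio of -0.26. Of the 14 members at that level, 5 were lower (35.7%) and 2 were higher (14.3%), with a median of -0.014. The members with limits apart were TPI1, PGAM1, LDHB, PGLS and TALDO1 on the lower side and PGD and TKT on the higher side. No test of this contrast was made.

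Isozymes, grouped here by gene name although GALK2 and PGM2 act mainly on other substrates, are compared within a sample, so that scaling of the libraries does not touch their shares. Of the 10 groups with several members, the counting limits of at least 1 share lay apart in 6, namely hexokinase, phosphofructokinase, PFKFB, lactate dehydrogenase, glucose transport and galactokinase. No such count was made for groups of unrelated genes, so the 6 cannot be called many or few. Taken singly, 18.7% of all genes tested were lower and 26.1% were higher with limits apart. The largest step was that of SLC2A1, at 14.03 percentage points, ahead of HK2 at 11.6 and LDHA at 9.68. In aldolase, enolase, the monocarboxylate transporters and phosphoglucomutase the limits of the shares overlapped, with ALDOA at 98.3% and 98.0%, ENO1 at 97.1% in both, SLC16A1 at 93.8% and 94.4% and PGM1 at 74.2% and 77.1%. The difference itself still exceeded its counting half-width for PGM1, at 2.89 percentage points against 2.29, and barely for ALDOA, at -0.29 against 0.28. Summed over the isozymes, galactokinase had a log2 ratio of -0.62, lactate dehydrogenase -0.25 and phosphofructokinase -0.077, while hexokinase had 0.28, PFKFB 0.35 and glucose transport 0.17. The phosphofructokinase sum turns above 0 under the shift of TPM scaling. With the running median over length subtracted, the gap between isozymes was -0.80 for HK1 against HK2, -0.82 for GALK1 against GALK2, 0.99 for SLC2A1 against SLC2A3 and 0.40 for LDHA against LDHB.

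**Figure D4:**
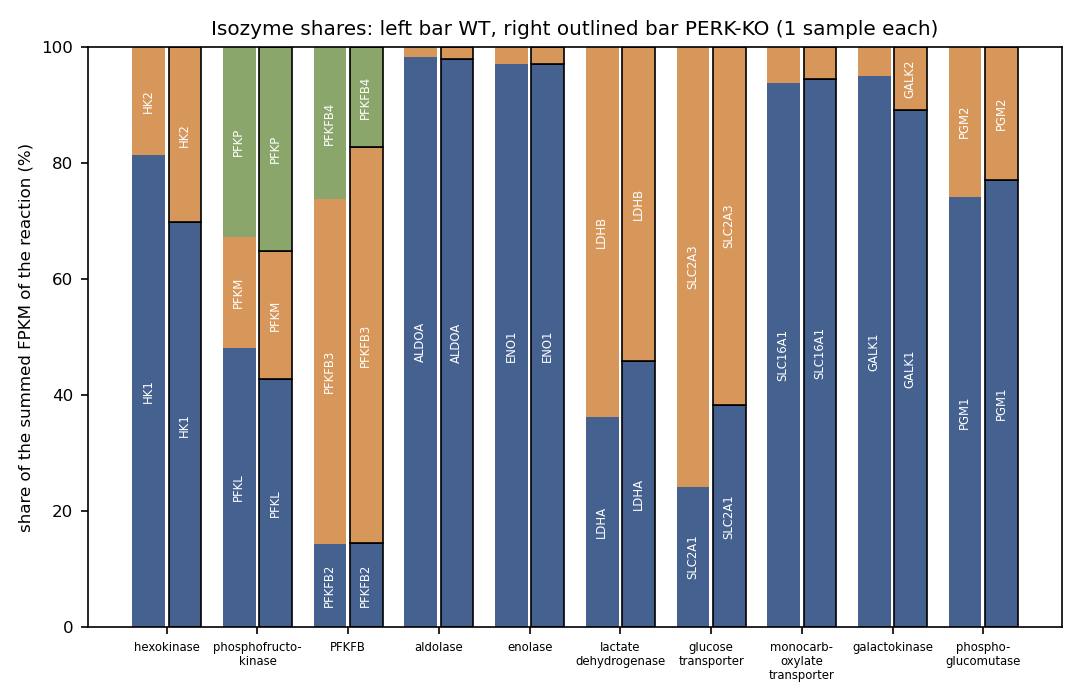
Share (%) of each isozyme in the summed FPKM of its reaction, for 10 reactions, in the WT sample (left bar) and PERK-KO cells (right, outlined bar), 1 sample each. The share of HK2 is 18.6% and 30.2%, that of LDHA 36.2% and 45.9%, that of SLC2A1 24.3% and 38.3% and that of GALK2 5.06% and 10.9%, while ENO1 stays at 97.1%.

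Beyond the members, 60 other genes of sugar metabolism were listed, of which 42 passed the filter, 18 did not and 6 of these were at 0 in both samples. Of the 42, 4 were more than 1.5-fold lower (9.52%) and 5 were higher (11.9%), close to the shares of all genes. With limits apart, 7 were lower (16.7%) and 13 higher (31.0%), beside 18.7% and 26.1% of all genes. The 5 higher by 1.5-fold with limits apart were PGM3, UGDH, PCK2, PYGL and SLC2A13. PGM3, which makes the precursor of UDP-N-acetylglucosamine, had an FPKM of 12.9 (11.8 to 13.9) in the WT sample and 26.6 (24.8 to 28.3) in the PERK-KO sample. UGDH, which oxidizes UDP-glucose to UDP-glucuronate, had 12.6 and 21.0. PCK2, the mitochondrial phosphoenolpyruvate carboxykinase, had 8.58 (7.58 to 9.59) and 14.6 (13.2 to 16.05). PCK1, its cytosolic counterpart, had 2.39 (1.96 to 2.83) and 1.44 (1.07 to 1.81) and was the 1 gene lower by 1.5-fold with limits apart. PYGL, liver glycogen phosphorylase, had 39.0 and 60.0, and SLC2A13, a proton and myo-inositol carrier, had 1.05 and 1.60. Both carboxykinases thus had limits apart in opposite directions.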

How the data were processed

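Polyadenylated RNA of WT and PERK-KO HEK293 cells, 1 sample each, was sequenced. The authors aligned reads to hg19 with TopHat2 2.0.13 and deposited FPKM per gene with confidence limits from Cufflinks 2.2.1, per the submitters' notes. The annotation was not given in the sources used here. No counts were in the tables, and no count model was fitted. The ratio was PERK-KO over WT FPKM with no pseudocount, over genes that reached 1 FPKM in either sample, and intervals were propagated from the limits. Transcript lengths came from GENCODE 44 on GRCh37 (92.6% of genes tested, 37 of 37 members), with a running median over 501 genes. Promoters came from RefSeq. All members were named, and of the other sugar genes those past 1.5-fold with limits apart and paralogs of members. The members and lists were chosen with earlier results of these data known. Alternatives were other filters, pseudocounts, scalings, thresholds, the length step and summed rows. Python 3.11.15, numpy 2.4.6, pandas 2.3.3, scipy 1.17.1 and matplotlib 3.10.9 were used, and the scripts were tested on simulated data. Some genes of these pathways are not reported here.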

Additional observations from a re-analysis of the deposited data

How the results depend on the processing

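No paired analysis was possible because there was 1 sample per genotype, and for the same reason no replicate could be left out. Under TPM scaling, 0 members were reduced by 1.5-fold and 4 increased (SLC2A1, HK2, PFKFB3 and GALK2), beside 3.82% and 20.0% of genes tested, 4 were lower and 23 higher with limits apart, beside 8.74% and 43.2%, and the median log2 ratio of the members was 0.25. With the running median over transcript length subtracted, 0 members were reduced, since GALK1 came to -0.52, and 2 were increased, beside 5.13% and 6.39% of genes. At 1.3-fold, 4 were reduced (TPI1, LDHB, GALK1 and TALDO1) and 4 increased, beside 15.3% and 20.2% of genes, and at 2-fold 0 and 0, beside 2.08% and 3.28%. The other filters, pseudocounts, the 75th percentile and median scalings and summed rows left the reduced and increased members as reported. With the median log2 ratio of all genes set to 0, or with the 75th percentile scaling, ALDOA and PGK1 joined the lower members with limits apart and GALK2 left the higher ones. TPM scaling moved the log2 ratio of 30 of 37 members beyond its counting interval and the length step that of 16. No member passed from lower with limits apart to higher, or the reverse, under these scalings. Depth limits PFKFB2, PFKFB4, SLC16A3 and GALK2 most.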

Other observations

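GAPDH, TPI1, ENO2 and SLC2A3 lie on chromosome 12 between 6643585 and 8088892, and their log2 ratios of 0.048, -0.47, 0.015 and -0.12 were not alike. Among the other listed sugar genes, 3 further genes were more than 1.5-fold lower with overlapping limits and low FPKM. These were the enolase paralog ENO3, at 2.30 (1.67 to 2.92) in the WT sample and 1.37 (0.864 to 1.87) in the PERK-KO sample, the transketolase paralog TKTL1, at 1.02 (0.718 to 1.32) and 0.595 (0.337 to 0.853), and FBP1, at 1.12 (0.688 to 1.54) and 0.527 (0.1997 to 0.855). FBP1 encodes a fructose bisphosphatase of gluconeogenesis and was named after its values had been seen. LDHC, a testis form of lactate dehydrogenase next to LDHA, had 6.99 (5.78 to 8.20) and 5.83 (4.66 to 7.004), with overlapping limits.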
